A study of Drosophila melanogaster with 2 samples.

Results

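The bithorax complex is the posterior Hox cluster of Drosophila melanogaster on chromosome arm 3R, made up of Ubx, abd-A and Abd-B. It was examined here for binding of Pita, a DNA-binding protein with zinc fingers that acts in chromatin architecture and insulation. Chromatin immunoprecipitation with sequencing had been done on whole embryos aged 0 to 24 hours, of both sexes pooled, from a stable transgenic line in which GFP is fused to the C-terminal end of Pita. The 2 libraries, biological replicates 1 and 3, carried the same transgene and form 1 group, so there was no contrast between conditions and no test was made. The labels disagree on the antibody: anti-GFP stands in the description and is used here, while the antibody field gives pita. Whole embryos of mixed age hold segments in which each of these genes is on and segments in which it is off, and a peak does not say in which cells Pita was bound.

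All summits between the outermost annotated ends of Ubx and Abd-B, with 20 kb on either side, were taken (dm6, 3R:16636623-16992236, 355.614 kb). Of the 1338 summits of the authors' optimal list, thresholded by IDR (irreproducible discovery rate, a measure of how well ranks hold between replicates), 15 lay in this window. The window also held 124 of 30000 candidates of the pooled libraries, 128 of 30000 of replicate 1 and 131 of 30000 of replicate 3. The candidate lists were deposited as peaks and background, so a candidate outside the IDR list is not in itself a binding site.

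Hox genes encode homeodomain transcription factors that give body segments their identity. Ubx acts in the posterior thorax and anterior abdomen, abd-A in the middle abdomen and Abd-B in the posterior abdomen and genitalia. Long regulatory domains between the genes, among them bxd, which serves Ubx, and the iab domains, which serve abd-A and Abd-B, lie in the order of the segments they serve. Boundary elements keep neighbouring domains apart, and Pita is known to bind several of them. In published genetic maps the boundary Fub lies between the bxd domain and the domains of abd-A, and Mcp, Fab-6, Fab-7 and Fab-8 follow in that order between the iab-4 microRNA hairpin and Abd-B. The positions of these elements are not in the annotations used here, so summits were placed by annotated genes and no summit was assigned to a boundary.

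The letters under the summits are shown first, so that the values below can be read beside them. A matrix of 19 bp learned from IDR summits outside the window gave a sequence with AACC near its right end. Learning again after this sequence had been masked gave the core sequence known for the insulator protein CTCF. Capitals mark letters that match the most frequent base of a column in which that base makes up at least 70% of the sites. There are 10 such columns in the first matrix and 8 in the second. Sequences are from RefSeq dm6 and read 5′ to 3′ on the strand named.

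Sites of the first sequence, under summits with signals from 492 to 3492:
Abd-B intron, 3R:16969733-16969751, minus strand: cTAGCtatttCacccACCg
Abd-B intron, 3R:16969771-16969789, minus strand: tTAGCgagtgCaccctCCt
Between Ubx and abd-A, 3R:16798653-16798671, plus strand: cgAGCaggtaCccgAACCa
Right of the iab-4 hairpin, 3R:16869319-16869337, plus strand: tTAGCcaatatccaAACCt
lncRNA:iab8, 3R:16899524-16899542, minus strand: tTAGtcggtaCgcaAACCa
lncRNA:iab8, 3R:16899503-16899521, plus strand: cTAGCggtGaCcctcACCt
Beside Actn3, 3R:16978111-16978129, plus strand: tTAGCcaaaaCacgAACCa

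Sites of the CTCF core, under summits with signals from 146 to 618:
lncRNA:bxd intron, 3R:16748722-16748740, plus strand: cgaatccatAGaTGGCGCa
Left part of lncRNA:iab8, 3R:16834867-16834885, minus strand: acggaatacAGaTGGCGCc
Right part of lncRNA:iab8, 3R:16919224-16919242, minus strand: accaaggccAGgTGGCGCt

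The 121 bp around 2 of the summits show how the matches are arranged. All are plus strand, and capitals mark matches of either matrix. In the summit right of the hairpin, which had a signal of 763, a match of the first sequence stands beside 2 of the CTCF core. The CTCF core was thus also found under a stronger summit than those of its list above. In the weakest summit there are 2 CTCF core matches.
Right of the hairpin, 3R:16869307-16869427: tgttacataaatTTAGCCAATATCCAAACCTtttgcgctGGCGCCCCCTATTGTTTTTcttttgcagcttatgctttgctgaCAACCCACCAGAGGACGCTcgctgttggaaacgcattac
Weakest summit, 3R:16834810-16834930: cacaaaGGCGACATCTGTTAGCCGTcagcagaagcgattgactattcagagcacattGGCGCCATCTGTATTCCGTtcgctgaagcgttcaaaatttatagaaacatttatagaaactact

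The transcribed units of Ubx (3R:16656623-16734426) and abd-A (3R:16807214-16830049) held 0 IDR summits each, although they held 17 and 7 pooled candidates, the strongest with a signal of 87.2 and 40.5. At the rate of arm 3R units of their lengths would hold 0.771 and 0.226 IDR summits, and at the rate of the window 3.28 and 0.963. The counts of 0 were not tested, and at the rate of the arm neither unit would hold 1. Of the 20 protein-coding genes that overlap the window 2 held an IDR summit, Abd-B and MSAmiP, which overlaps lncRNA:iab8. The share over all protein-coding genes was not counted, so no reading is drawn from this number. The signal is the authors' value for each peak. It is used to rank peaks and to compare them between the 2 libraries and between groups of summits, and is not read as an amount of bound protein. The Abd-B unit (3R:16927212-16972236) held 3, the interval between Ubx and abd-A held 3, and that between abd-A and Abd-B held 6. The left flank held 2 and the right flank 1. The longest stretch without an IDR summit was the 92.4 kb from the summit beyond the 3′ end of Ubx to that in lncRNA:bxd, which spans the whole Ubx unit. Leaving out the 2 summits that lay within 300 bp of a stronger one, neighbours were a median of 17.95 kb apart (n = 13 summits).

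**Figure D1:**
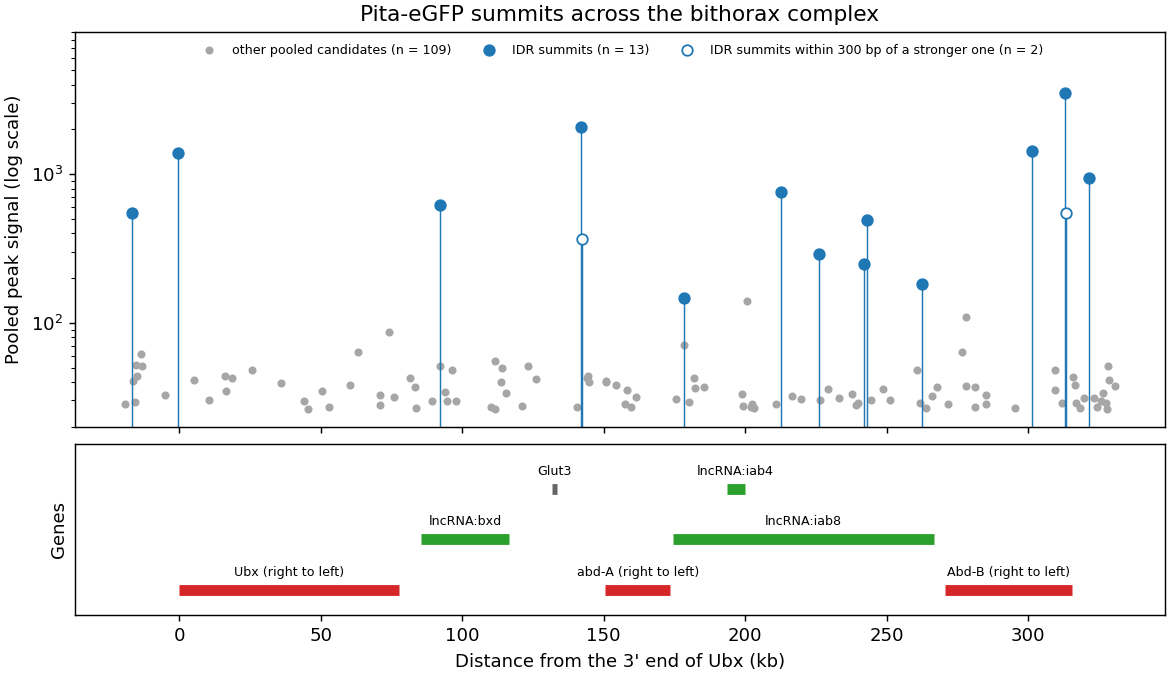
Pooled peak signal (log scale) of IDR summits (blue; white fill, within 300 bp of a stronger one) and of the other pooled candidates (grey) by distance from the 3′ end of Ubx, with genes below. The blue points lie in Abd-B, in the flanks and between the Hox genes, there mostly within lncRNA:bxd and lncRNA:iab8. None lies within Ubx or abd-A.

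Summits were denser in the complex than on the arm. The window held 42.2 IDR summits per Mb against 9.91 on all of 3R, a ratio of 4.26 (exact Poisson 95% interval 2.40 to 6.91, for counting error only). The Antennapedia complex, the other Hox cluster, taken with the same flanks, held 17 IDR summits or 45.0 per Mb, so the density is not particular to the bithorax complex. Of the pooled candidates in the window 15 of 124, or 12.1%, were in the IDR list, where the list as a whole takes 4.46% of the pooled candidates. In the Antennapedia window it was 17 of 132, or 12.9%, so this share is not particular to the bithorax complex either.

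**Figure D2:**
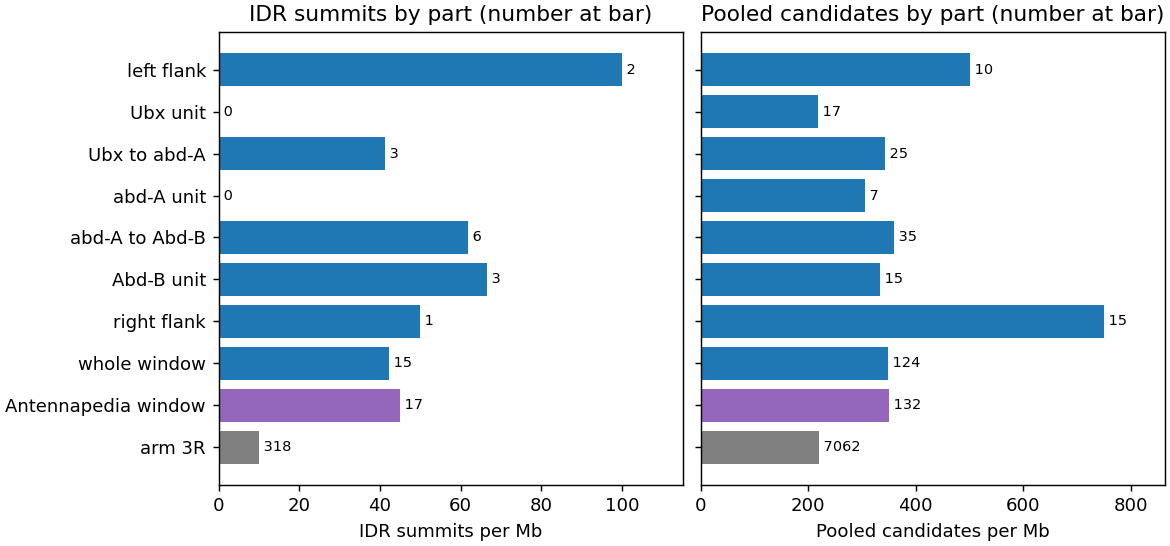
IDR summits (left) and pooled candidates (right) per Mb in each part of the window, the whole window, the Antennapedia window and arm 3R, with the number at each bar. The Ubx and abd-A units have 0 IDR summits, and the whole window and the Antennapedia window have nearly the same density.

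Going from left to right, the left flank held a summit at 16640065, 140 bp from the start site of nonA-l. Its signal was 549.9 in the pooled list, 225 in replicate 1 and 324 in replicate 3. The next, at 16656290, lay 333 bp beyond the 3′ end of Ubx and 628 bp from the start of modSP, which encodes a serine protease of the Toll pathway. Its signal was 1389 pooled, 579 in replicate 1 and 806 in replicate 3, rank 238 of 1338. It is thus the closest IDR summit to any part of Ubx, at its far end from the promoter. The best-scoring match of the first sequence in the whole window (3R:16655962-16655980, minus strand) lay inside this peak's interval but 319 bp from the summit, and reads as follows.
Beyond the 3′ end of Ubx, 3R:16655962-16655980, minus strand: tTAGCgcgGaCtcaAACCa

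Between Ubx and abd-A, a summit at 16748727 lay in an intron of lncRNA:bxd, the long non-coding transcript of the bxd domain. Its signal was 618 pooled, 299 in replicate 1 and 302 in replicate 3. The second strongest summit of the window, at 16798624, lay between lncRNA:bxd and abd-A, 1976 bp from lncRNA:CR45750. It reached 2068 pooled, 964 in replicate 1 and 1076 in replicate 3, and ranked 93. A summit at 16798854, within 300 bp of it, had 366 pooled, 209 in replicate 1 and 131 in replicate 3. These were the only IDR summits between lncRNA:bxd and abd-A.

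Between abd-A and Abd-B, all 6 IDR summits fell within lncRNA:iab8 (3R:16831116-16923231), a long transcript of the abdominal region that is known to carry the mir-iab-8 precursor. The one nearest abd-A, at 16834870, was the weakest of the window: 146 pooled, 61.4 in replicate 1 and 75.8 in replicate 3, rank 1328 of 1338. It lay 4821 bp from the nearest abd-A start site. The other 5 lay in the 66.9 kb between the iab-4 hairpin (3R:16856275-16856342) and the start site of lncRNA:iab8. Published maps place Mcp, Fab-6, Fab-7 and Fab-8 between the hairpin and Abd-B, and no summit was assigned to any of them. At 16869367 the signal was 763 pooled, 360.4 in replicate 1 and 391 in replicate 3. At 16882839 it was 291, with 123 and 165 in the replicates.

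A close pair followed, 937 bp apart. The left summit, at 16898599, had 248 pooled, 126 in replicate 1 and 122 in replicate 3. The right one, at 16899536, was higher in both libraries, with 492 pooled, 243 in replicate 1 and 261 in replicate 3, and lay 296 bp from an annotated lncRNA:iab8 start site. The last of the 5, at 16919214, had 181 pooled, 69.8 in replicate 1 and 112 in replicate 3.

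Abd-B held the highest signal of the complex. The summit at 16969744, in an intron 1170 bp from an Abd-B start site, had a signal of 3492 pooled, 1641 in replicate 1 and 1850.3 in replicate 3, and ranked 16 of 1338 genome-wide. A second intronic summit, at 16957956, had 1439.6 pooled, 671 in replicate 1 and 773 in replicate 3. Another summit, at 16969980, lay within 300 bp of the strongest and had 545 pooled, but 141 in replicate 1 and 484 in replicate 3. In the right flank, a summit at 16978098 lay 303 bp from the start of Actn3, an alpha-actinin gene, with 944 pooled, 421 in replicate 1 and 528 in replicate 3.

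Of the 15 summits, 9 were intronic, 3 intergenic and 3 within 500 bp of a start site (nonA-l, lncRNA:iab8 and Actn3). Over the whole IDR list 60.8% of summits lay within 500 bp of a start site and 13.5% in introns.

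The IDR list was chosen for agreement between the replicates, so their match is a description. All 15 had a candidate of both replicates within 100 bp, as had 96.5% of the IDR list, at a median distance of 6.5 bp and at most 51 bp. The log2 ratio of replicate 3 over replicate 1 had a median of 0.20 in the window and 0.26 over all 1291 matched summits, of which the central 90% ran from -0.30 to 1.14. Leaving out the summits close to a stronger one, the 13 others lay between -0.05 and 0.69. The 2 close to a stronger one stood apart in opposite directions, at -0.67 (16798854) and 1.78 (16969980). Over the IDR list 19.3% of summits lie within 300 bp of a stronger one, and 2 of the 15 do here.

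**Figure D3:**
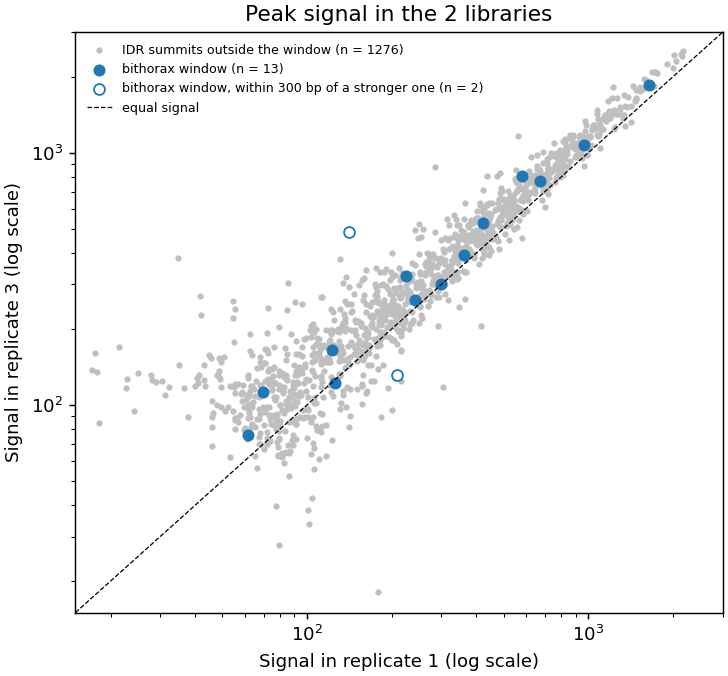
Signal in replicate 3 against replicate 1 (both log scale) for IDR summits outside the window (grey) and in it (blue; white fill, within 300 bp of a stronger one), with the line of equal signal. The 13 filled points lie within the grey cloud, and the 2 white points lie on opposite sides of it.

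The first sequence lay wholly within 50 bp of 7 of the 15 summits, which was close to its share of 53.4% of the 1323 IDR summits outside the window. In windows 500 bp from summits 5.03% held it by construction of the threshold. The 7 were the summits at nonA-l, at 16798624, at 16869367, at 16899536, in both Abd-B introns (16957956 and 16969744) and beside Actn3. Their signals ran from 492 to 3492. All 7 were among the 10 members at or above the median signal of the IDR list, and 0 of the 5 weaker members held it. Outside the window the same split gave 76.0% and 30.9%, so a higher share at strong summits holds across the list. One further match stood just past this limit at 16898599, its centre 44 bp from the summit. That summit is among the 5 weaker members, and its match scored 17.4, so the split of 7 and 0 depends on the limit of 50 bp.

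The CTCF core lay within 50 bp of 6 of the 15, against 16.8% of the IDR summits outside. They were the summit in lncRNA:bxd, that at 16798854, and 4 of the 6 within lncRNA:iab8 (16834870, 16869367, 16882839 and 16919214). Of the 5 members below the median signal 4 held it, where outside the window the share below the median was 17.9%. The 5 members with the CTCF core alone had signals from 146 to 618, and the 6 with the first sequence alone from 492 to 3492. Outside the window the medians of the same classes were 358 and 865. These classes depend on the limit of 50 bp. At the strongest summit, 16969744, a CTCF core match stood just past it, its centre 52 bp away. That match scored 21.1, the highest of the CTCF core matches at the members. Of the 5 with the CTCF core alone, 16798854 shares its peak interval with 16798624, which held the first sequence. The 2 sequences met within 50 bp only at 16869367. Within 150 bp all 13 members not close to a stronger summit held at least 1 of the 2 sequences, 7 the first alone, 4 the CTCF core alone and 2 both. Of 1067 such summits outside the window 633 held the first alone, 160 the CTCF core alone, 176 both and 98, or 9.18%, neither. Both matrices and this split were chosen after the data had been seen, and CTCF binding was not measured here. The thresholds were set for 50 bp, and the share of windows away from summits with a match within 150 bp is not given here. At 16656290 the only match within 150 bp was of the first sequence, its centre 97 bp away.

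**Figure D4:**
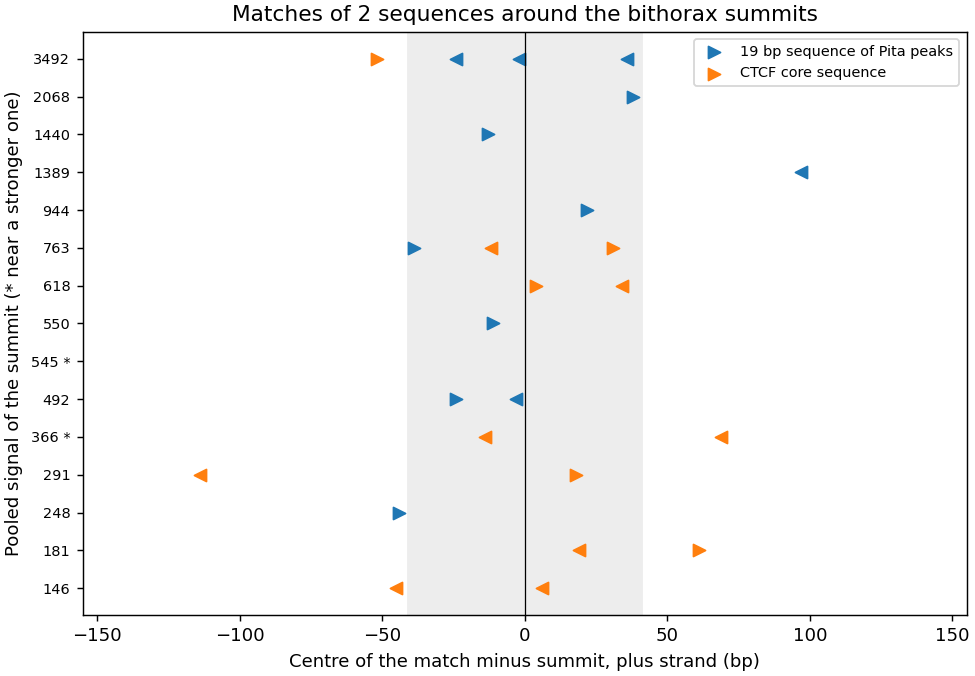
Matches of the 19 bp sequence of Pita peaks (blue) and of the CTCF core sequence (orange) by the distance of their centre from each summit (bp), with summits ordered by pooled signal and triangles pointing along the strand. The grey band holds the centres of matches wholly within 50 bp. Blue matches reach down to the summit with a signal of 248, orange ones occur from the top row to the bottom row, and the ranges overlap.

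A match alone did not mark a summit. The window held 195 matches of the first sequence above the threshold, and 11 had their centre within 50 bp of an IDR summit, where outside the window this held for 1.29% of 80482 matches. IDR summits were also denser in the window than on the arm, by the ratio of 4.26. The 2 shares are thus not on equal terms, and no reading is drawn from their difference. Of the 10 best-scoring matches 7 had an IDR summit within 50 bp. The best-scoring of all, beyond the 3′ end of Ubx, had none within 50 bp. It lay inside the interval of an IDR peak, 319 bp from its summit. Among those without was a match in abd-A (3R:16815735-16815753, plus strand), whose nearest candidate lay 679 bp away with a signal of 27.0, and one in Abd-B (3R:16963704-16963722, minus strand), whose nearest candidate lay 2203 bp away with 48.3.
In abd-A, 3R:16815735-16815753, plus strand: tcAGCtctGaCtcaAACCa
In Abd-B, 3R:16963704-16963722, minus strand: ccAGCcagcaCacacACCa

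Words known for other proteins of the complex were counted on both strands within 150 bp. GAGAG, bound by the GAGA factor, was present at 5 of the 15 summits and 21.9% of those outside. GCCAT, the core of the Polycomb recruiter Pho, was present at 7 and at 40.8% outside. CGATA, bound by the insulator protein BEAF, was present at 3 and at 45.0% outside. Among 28661 pooled candidates not in the IDR list, GAGAG was present at 29.5%, GCCAT at 48.4% and CGATA at 30.8%. Such short words are thus common at candidates of any kind, and the differences were not tested.

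Counting the 8 Hox genes of both complexes, 0 had an IDR summit in the 500 bp on either side of a start site. Of all 13968 protein-coding genes 5.68% had one, a share so low that 0 of 8 does not set the Hox genes apart. The nearest IDR summit was 14301 bp from the Ubx start site, 4821 bp from the nearest abd-A start site and 1170 bp from the nearest Abd-B start site. In the Antennapedia complex it was 3326 bp for lab, 17626 bp for pb, 11580 bp for Dfd, 4471 bp for Scr and 15116 bp for Antp. A pooled candidate of any signal lay within 500 bp of a start site of lab, pb and Abd-B, 3 of 8, against 27.4% of all protein-coding genes.

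Below the IDR threshold the window held 109 further pooled candidates, with signals from 26.3 to 139.8 and a median of 33.2. Of these, 29 had a candidate of both replicates within 100 bp and 20 of neither. The first sequence was present at 9 of the 109, or 8.26%, against 5.55% of such candidates outside the window. The member nearest the IDR threshold was 16834870 with 146, and the nearest below it was 16857282 with 139.8, which lay 940 bp from mir-iab-8. The next strongest, at 16934529 with 109.7, lay 287 bp from an Abd-B start site. The strongest within Ubx, at 16730915 with 87.2, lay 3511 bp from the Ubx start site and had no candidate of replicate 1 within 100 bp. The other 7 of the 10 strongest had signals from 51.5 to 71.0.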

How the data were processed

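Per the deposited notes, candidates were called against a control alignment, and the optimal IDR list rests on the pooled list and those of the single replicates. The aligner, caller and IDR threshold were not given in the sources used here. Each peak's signal is the authors' deposited value. Read depth is unknown, and intervals cover counting error only. The labels call the libraries biological replicates but do not say whether the embryos were collected separately, and differences between them may be technical.

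The dm6 lists were used, with Ensembl release 115 genes and the RefSeq dm6 sequence, and the dm3 lists were not. Summits within 100 bp were matched between lists, and summits within 500 bp of a start site were called promoter summits. The members, genes and lists were chosen with earlier results of these data known. Genes and summits named are Ubx, abd-A and Abd-B, every IDR summit of the window, the 10 strongest other candidates, the non-coding landmarks and the Antennapedia Hox genes.

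The 19 bp matrix was learned in 8 rounds from IDR summits outside the window, starting from the 8-letter word most enriched over windows 500 bp away, with a threshold that 5% of those windows exceed. Of 3 ways of choosing the matrix that were run, the one reported was the last, and it was kept with the results in view. Ranking words by the difference of counts alone gave the CTCF core as the first matrix, and a second matrix that is rich in A and T. Dividing that difference by a root of the background count gave the AACC sequence first, which earlier results of these data had also shown. A plain word search for the CTCF core was run before its matrix. Matches are printed as examples, and not all are reported here. The scripts were tested on simulated data. Python 3.11.15, NumPy 2.4.6, SciPy 1.17.1, pandas 2.3.3 and Matplotlib 3.10.9 were used.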

Additional observations from a re-analysis of the deposited data

How the results depend on the processing

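The count of 15 IDR summits ranged from 14 to 17 when the strongest 1338 candidates of 1 replicate alone replaced the list, and the density ratio from 3.97 to 4.65. It was 12 without flanks, 18 with flanks of 50 kb, 13 without summits near a stronger one and 10 among the 669 summits of highest signal. With all pooled candidates in place of the IDR list, a comparison added after seeing the data, the window held 124. Of the Hox genes, 1 of 8 (Abd-B) had an IDR summit once the distance to a start site was widened to 2000 bp. The share of all protein-coding genes at 2000 bp is not given here, so no reading is drawn from this count. A pooled candidate lay within 500 bp for 3 of 8, against 27.4% of all protein-coding genes. The matrix was selected among 3 after seeing the data. The kept matrix was present at 7 of 15 summits (6 to 8 with another threshold, 100 bp, or learning on the other arms). The 2 run before it were present at 5 (17.2% outside, a CTCF core) and at 1 (15.6% outside, rich in A and T). The CTCF core count of 6 was 4 by plain word search (15.1% outside) and 5 to 7 under the other settings. No paired analysis was possible because the libraries form 1 group. Read depth is unknown, so a summit missing from Ubx or abd-A cannot be told from one below detection.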
